A study of Mus musculus with 94 samples.

Results

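Serine/arginine-rich (SR) splicing factors were examined in single mouse haematopoietic stem cells labelled Ski-KO or Ski-WT. The 10 genes Srsf1, Srsf2, Srsf3, Srsf4, Srsf5, Srsf6, Srsf7, Srsf9, Srsf10 and Srsf11 were taken by symbol from the table of 13244 genes, and all 10 were found. Ski encodes a protein that holds back transcription by Smads downstream of TGF-beta. All cells came from C57BL/6 mice and were stem cells of fetal liver origin that had spent 6 months in a transplanted host before recovery from hindlimb bone marrow. They were enriched with CD117 beads, sorted as Lineage- Cd48- cells that carried Cd45.2, Cd150, c-Kit and Sca-1, and captured singly on a Fluidigm C1 chip. The Ski allele, the hosts and their ages, and the number of donors or hosts are not given in the sources used here. Of the 94 cells, 46 were Ski-KO and 48 were Ski-WT. The Ski-KO cells carried the label prefix 051716 (27 cells) or 051816 (19 cells), and every Ski-WT cell carried 061016. The labels tie no cell to an animal. Each genotype was therefore 1 sample, no test between genotypes was possible, and differences have no replicate check. Since no prefix held both genotypes, genotype and prefix cannot be told apart.

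SR proteins carry RNA recognition motifs and a tail rich in arginine and serine. They bind enhancer sequences in exons, help the U1 particle and U2AF to mark splice sites, and in several cases travel with the spliced mRNA to the cytoplasm. Their tails are phosphorylated by SRPK and CLK kinases, and many SR genes limit their own output by splicing in a poison exon that sends the transcript to nonsense-mediated decay. In myelodysplastic syndrome, a stem cell disease of blood formation, SRSF2 is among the recurrently mutated splicing factors.

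The promoters of 4 members are shown because these are the genes on which the levels and the differences turn: the most abundant member (Srsf2), the member called lower in Ski-KO cells (Srsf7), its closest relative (Srsf3) and the member called higher (Srsf4). Each runs 5′ to 3′ on the gene's own strand, from 250 bases before to 50 bases after the start in RefSeq's GRCm38.p6 table. That build is not the mm9 named for these data. Capitals mark TATAAA or TATATAA on the sense strand and CCAAT and GGGCGG on either strand, where the reverse strand reads as ATTGG and CCGCCC. The regions are chr11:116853045-116853344 on the minus strand for Srsf2, chr17:80207256-80207555 on the minus strand for Srsf7, chr17:29032410-29032709 on the plus strand for Srsf3 and chr4:131873387-131873686 on the plus strand for Srsf4.
Srsf2: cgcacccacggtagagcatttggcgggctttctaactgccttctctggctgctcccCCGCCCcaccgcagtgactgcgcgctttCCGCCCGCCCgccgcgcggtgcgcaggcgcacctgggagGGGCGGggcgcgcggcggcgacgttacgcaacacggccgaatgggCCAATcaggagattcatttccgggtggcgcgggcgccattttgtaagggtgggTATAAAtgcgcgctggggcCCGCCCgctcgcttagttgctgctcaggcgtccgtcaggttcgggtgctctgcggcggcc
Srsf7: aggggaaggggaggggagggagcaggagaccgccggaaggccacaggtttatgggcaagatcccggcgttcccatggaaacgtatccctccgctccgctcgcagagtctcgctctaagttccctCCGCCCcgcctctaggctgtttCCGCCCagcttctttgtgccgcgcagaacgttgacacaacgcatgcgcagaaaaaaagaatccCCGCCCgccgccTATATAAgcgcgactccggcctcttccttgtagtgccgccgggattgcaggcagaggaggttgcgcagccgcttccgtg
Srsf3: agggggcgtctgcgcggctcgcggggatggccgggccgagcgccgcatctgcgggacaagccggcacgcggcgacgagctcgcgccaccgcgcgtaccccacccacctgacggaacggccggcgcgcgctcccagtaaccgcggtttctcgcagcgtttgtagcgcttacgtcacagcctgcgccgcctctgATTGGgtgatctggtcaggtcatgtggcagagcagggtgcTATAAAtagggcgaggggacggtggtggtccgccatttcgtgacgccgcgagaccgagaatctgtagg
Srsf4: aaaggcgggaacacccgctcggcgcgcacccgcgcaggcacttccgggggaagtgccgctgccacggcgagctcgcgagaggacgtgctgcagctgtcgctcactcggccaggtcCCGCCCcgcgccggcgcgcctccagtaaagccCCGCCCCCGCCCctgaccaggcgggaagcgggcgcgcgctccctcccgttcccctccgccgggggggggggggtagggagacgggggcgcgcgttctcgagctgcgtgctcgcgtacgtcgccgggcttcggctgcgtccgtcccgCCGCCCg
These motifs were chosen after the expression values were seen. TATAAA or TATATAA occurred in 3 of the 10 members and in 10.1% of all 27025 promoters of the same length. It lay 29 bases before the start in Srsf2 and Srsf7 and 18 bases before it in Srsf3, which were the 3 members with the highest mean TPM in Ski-WT cells. The Srsf4 promoter, like those of the 6 other members, held neither form. GGGCGG, the core of the site bound by Sp1, occurred in 9 of 10 members, all but Srsf3, and in 35.9% of all promoters. TGACG, the core of the site bound by CREB and ATF factors, was not capitalised and occurred in 7 of 10 members and 21.02% of all promoters. CCAAT occurred in 4 of 10 and 37.9%, and GGAAGT, an ETS-type core, in 2 of 10 and 24.1%. The members' promoters held from 56% (Srsf5) to 77.7% (Srsf4) G and C, against a median of 52.7% over all promoters. The motif shares were not adjusted for this. A match is a description of these letters and not a bound site.

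The deposited values were log2(TPM + 1), where TPM expresses a transcript's abundance per length as a share of the cell's total, so levels can be set beside each other between genes. Each cell's values summed to between 997625 and 999995 TPM, and sequencing depth per cell is unknown. Cells held 2326 to 5214 genes above 0, with a median of 3248 in prefix 051716, 3679 in prefix 051816 and 3670.5 in Ski-WT. The sort markers were mixed at the RNA level. Cells at 5 TPM or more numbered 38 of 46 and 41 of 48 for Kit, and 27 and 29 for Ly6a, which encodes Sca-1 and reached that level in only 7 of 19 cells of prefix 051816. Slamf1, which encodes Cd150, was above 0 in 20 of the 94 cells, and Cd48 in 1 cell at 3.69 TPM. Ski was above 0 in 9 Ski-KO and 10 Ski-WT cells, which leaves the genotype labels unchecked. Markers of other blood cells were partly present. Of those in the table, 6 of 12 myeloid, 5 of 10 erythroid, 10 of 11 megakaryocyte, 2 of 6 B cell and 4 of 8 T and NK cell markers reached 5 TPM in at least 1 cell. Lyz2 did so in 28 Ski-KO and 28 Ski-WT cells, Prtn3 in 24 and 33, Nkg7 in 18 and 19 and Pf4 in 12 and 17, whereas Mpo, Elane, Ctsg, Hba-a1, Alas2, C1qa, C1qb and C1qc stayed under 5 TPM in every cell.

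A gene was described further if 25% or more of the cells of either genotype were above 0, which held for 6240 genes and for all 10 members. Srsf4 passed only through its Ski-KO cells, being above 0 in 41.3% of these and 16.7% of Ski-WT cells, so that it had to differ, and its difference supports no statement about the family. A difference is the mean of log2(TPM + 1) over Ski-KO cells minus that over Ski-WT cells. It was called when it was at least 1 in size and both Ski-KO prefixes lay on the same side of Ski-WT. By this rule 1 member was called lower (Srsf7, -2.44) and 1 higher (Srsf4, 1.75). Of all measured genes, 11.5% were called lower and 2.0% higher. The median difference over the members was -0.33, with -0.21 in prefix 051716 and -0.53 in prefix 051816. Over all measured genes it was -0.22, with -0.27 and -0.20. Both prefixes were lower than Ski-WT for 4 members (Srsf5, Srsf7, Srsf9 and Srsf10) and for 44.3% of all genes, and both were higher for 2 members (Srsf3 and Srsf4) and for 18.5% of all genes. The prefixes lay on opposite sides for Srsf1, Srsf2, Srsf6 and Srsf11, 40% of the members, and for 37.2% of all genes. These shares lie near the background. By the size rule Srsf7 and Srsf4 went opposite ways, but this rests on Srsf4, which had to differ. In prefix 051816 alone, and with a filter at 50% of cells, 0 members were called higher.

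**Figure D1:**
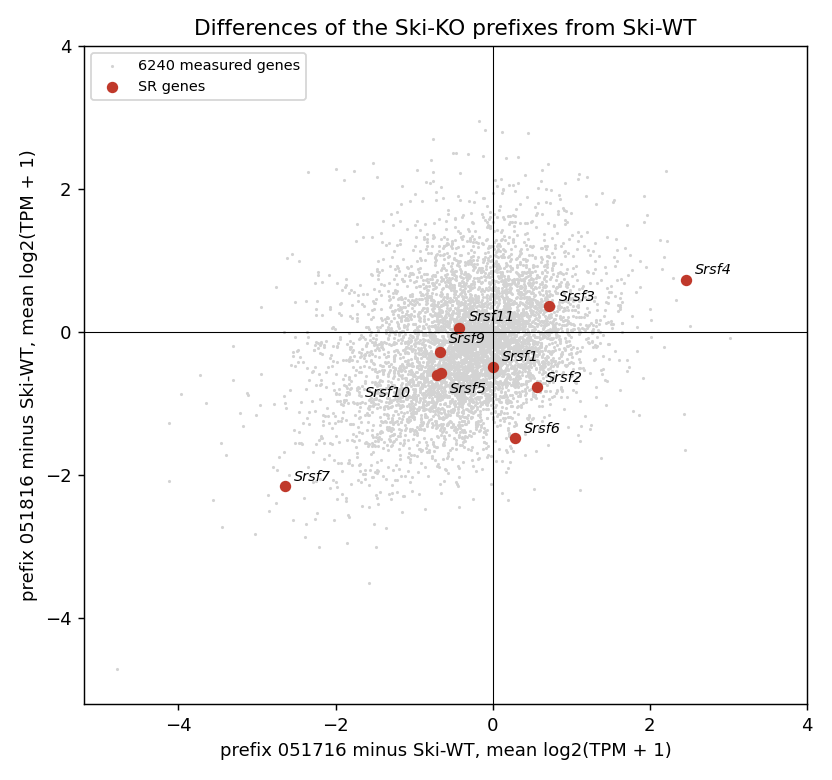
Difference from the Ski-WT mean of log2(TPM + 1) in prefix 051716 (horizontal axis) and in prefix 051816 (vertical axis), with the 10 SR members as red points over the 6240 measured genes in grey. Srsf7 lies at -2.65 and -2.16 and Srsf4 at 2.46 and 0.73, while for Srsf1, Srsf2, Srsf6 and Srsf11 the prefixes fall on opposite sides of 0.

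Srsf2, a single-motif SR protein that stays in the nucleus, dominated the family. In log2(TPM + 1), its lowest, median and highest cells were 5.27, 11.2 and 12.9 in prefix 051716, 1.97, 10.4 and 11.7 in prefix 051816, and 1.20, 10.8 and 12.6 in Ski-WT. It was above 0 in all 94 cells and at 5 TPM or more in 92 of them, and the 3 ranges overlapped almost entirely. Mean TPM was 3095 ± 2252 (SD over 27 cells), 1379 ± 877 (19 cells) and 2111 ± 1432 (48 cells). The prefixes lay on opposite sides of Ski-WT by 0.56 and -0.77, and their pooled difference of 0.01 is an average of these. Srsf2 ranked 65 by mean TPM among the 6240 measured genes in Ski-WT cells and supplied 62.7%, 40.8% and 51.6% of the summed SR TPM in the 3 groups of cells. It overlaps Mettl23 and Mfsd11 on the opposite strand by 460 and 288 exon bases in GENCODE vM21, and the SMARTer kit used does not mark strand, so reads there cannot be assigned. The rank correlation of Srsf2 with either gene across cells was 0.00 and 0.06.

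Srsf7 and Srsf3 are relatives that shuttle between nucleus and cytoplasm and serve as adaptors for the export receptor Nxf1, and both lie on chromosome 17 of GRCm38. For Srsf7 the lowest, median and highest cells were 0, 8.27 and 10.8 in log2(TPM + 1) in prefix 051716, 0, 8.004 and 10.8 in prefix 051816, and 0, 9.19 and 11.4 in Ski-WT. The ranges overlapped, and the groups parted at the low end. Only 2 of 48 Ski-WT cells were under 5 TPM, against 8 of 27 and 4 of 19 Ski-KO cells. The lowest Ski-WT cell above that limit stood at 5.41. Mean log2 levels were 6.06 ± 3.95 (SD, 27 cells), 6.56 ± 3.80 (19 cells) and 8.71 ± 2.15 (48 cells), which gave -2.65 and -2.16 for the prefixes. The pooled difference of -2.44 ranked 18 from the lowest of 6240 genes.

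The share of cells with Srsf7 at 5 TPM or more was 73.9% in Ski-KO (34 of 46, exact Clopper-Pearson interval 58.9% to 85.7%) and 95.8% in Ski-WT (46 of 48, 85.7% to 99.5%). These 95% intervals cover the counting error of cells only. The share was 21.9 points lower, with 70.4% and 78.9% in the prefixes. A share lower by 20 points or more, with both prefixes lower, was found for 3.86% of measured genes. Among cells at or above the limit, the median level was 8.92 in both prefixes and 9.25 in Ski-WT, a pooled difference of -0.33. Mean TPM was 423 ± 485 in Ski-KO and 699 ± 555 in Ski-WT, 1.65-fold higher in Ski-WT or -0.72 as a log2 ratio. The size rule was thus met on the mean of log2(TPM + 1) and on the share, and was not met on mean TPM or within expressing cells. The limit itself moved few cells, since the nearest values on either side of it were 3.61 and 6.70 TPM. The cells under it were mostly not at exact 0: 7 of 8, 2 of 4 and 1 of 2 held a trace between 0 and 5 TPM. Only 1 of these cells was at 1 TPM or more. Srsf7 also had the highest correlation of the members with the number of genes detected in a cell (rho 0.36). Its difference was -2.001 with that number as a covariate and -1.91 without the 9 cells with the fewest genes. Any further part of depth in it was not tested.

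Srsf3 went the other way by a smaller amount. Its lowest, median and highest cells were 0, 8.15 and 10.8 in prefix 051716, 0.34, 8.68 and 11.4 in prefix 051816, and 0, 7.92 and 10.4 in Ski-WT, so the groups overlapped over nearly their whole range. The differences were 0.72 and 0.36 and did not reach the size rule. The share of cells at 5 TPM or more was 88.9%, 78.9% and 79.2%. Mean TPM was 504 ± 558, 672 ± 814 and 358 ± 386, a log2 ratio of 0.68 for the pooled Ski-KO cells. With genes detected as a covariate the difference was 1.05 and passed the size rule. Reads from near-identical copies can be split in counting, and 4 annotated genes outside the table matched Srsf3 transcripts at 95% identity or more over at least 300 bases, so its level is uncertain. The same holds for Srsf10 (2 copies) and Srsf5 (1 copy). No such copy was found for Srsf7.

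The order of these relatives within a cell differed between the Ski-WT cells and both Ski-KO prefixes, where genotype and prefix cannot be told apart. This pair was compared after the values were seen. The counts, ranks and shares below therefore restate the Srsf7 and Srsf3 levels above and give them no support, and the Srsf3 level is uncertain. Srsf7 exceeded Srsf3 in 36 of 48 Ski-WT cells, but in 13 of 27 and 7 of 19 Ski-KO cells. The median of log2(TPM + 1) for Srsf7 minus that for Srsf3 in the same cell was 1.67 in Ski-WT, -0.12 in prefix 051716 and -0.59 in prefix 051816. By mean TPM, Srsf7 was the second member in Ski-WT and the third in both Ski-KO prefixes, with Srsf3 in the opposite places. Srsf7 was the most abundant of the 10 members in 7 Ski-WT cells and in 0 Ski-KO cells, and it supplied 17.1% of the summed SR TPM in Ski-WT against 7.98% and 13.7%. Within the sum Srsf3 made up 8.75% in Ski-WT, 10.2% in prefix 051716 and 19.9% in prefix 051816.

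**Figure D2:**
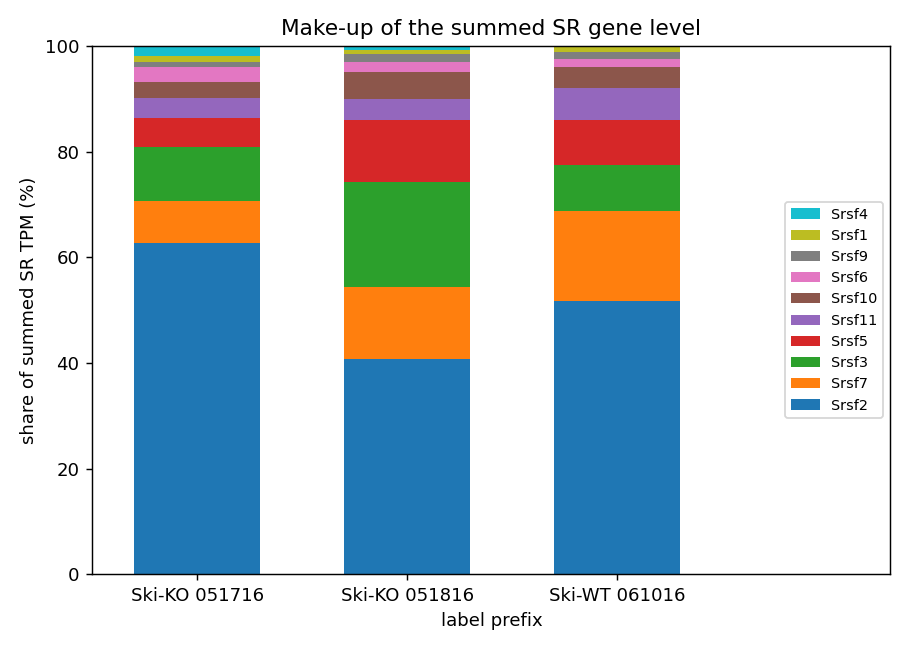
Percent of the summed SR TPM supplied by each member in prefix 051716, prefix 051816 and Ski-WT cells, as stacked bars from 0 to 100. Srsf2 supplied 62.7%, 40.8% and 51.6%, and the Srsf7 share was 17.1% in Ski-WT against 7.98% and 13.7% in Ski-KO.

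Most Ski-KO cells low in Srsf7 held the other abundant members. Of the 12 Ski-KO cells under 5 TPM for Srsf7, 11 were at 5 TPM or more for Srsf2, and 10 each for Srsf3, Srsf5 and Srsf11. In the other 34 Ski-KO cells the counts were 34, 29, 28 and 26 for Srsf2, Srsf3, Srsf5 and Srsf11. Srsf10 reached the limit in 4 of these 12 cells and in 23 of the other 34. By prefix this was 2 of 8 and 13 of 19 in 051716, and 2 of 4 and 10 of 15 in 051816. Srsf9 reached the limit in 4 of the 12 and 17 of the 34, Srsf6 in 6 and 17, Srsf1 in 5 and 11, and Srsf4 in 4 and 11. The number of members at 5 TPM or more per cell had a median of 6 in each Ski-KO prefix and 7 in Ski-WT, with means of 6.52 ± 1.60, 6.21 ± 1.90 and 6.604 ± 1.41 (SD over cells). The summed SR level had medians of 4738, 3422 and 3968 TPM, and single cells ran from 525 to 10497 TPM.

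Srsf4, Srsf5 and Srsf6 form a subfamily with a pair of RNA recognition motifs. Srsf4 was the rarest member in Ski-WT cells. Its lowest, median and highest cells were 0, 0.53 and 9.31 in log2(TPM + 1) in prefix 051716, 0, 0 and 8.44 in prefix 051816, and 0, 0 and 7.72 in Ski-WT. Cells at 0 numbered 13 of 27, 14 of 19 and 40 of 48. It reached 5 TPM in 11 of 27 cells (40.7%, exact Clopper-Pearson interval 22.4% to 61.2%), 4 of 19 (21.1%, 6.05% to 45.6%) and 4 of 48 (8.33%, 2.32% to 19.98%). The intervals cover the counting error of cells and do not compare the genotypes.

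The pooled share of cells with Srsf4 was 24.3 points higher in Ski-KO. A share higher by 20 points or more, with both prefixes higher, was found for 0.513% of measured genes. Mean TPM was 94.4 ± 189, 24.2 ± 80.4 and 7.38 ± 33.5, and the pooled Ski-KO mean of 65.4 was 8.87-fold that of Ski-WT. The differences were 2.46 and 0.73, with a pooled value of 1.75. Since Srsf4 passed the filter only through its Ski-KO cells, these values and the 0.513% give no measure of how unusual it is. With prefix 051816 alone the size rule was not met. Among cells at 5 TPM or more the median levels were 7.20 (11 cells), 5.12 (4 cells) and 5.93 (4 cells), each resting on few cells. Srsf4 shares 1532 exon bases with Gm12992 on the opposite strand, and strand is not marked. Gm12992 was at 0 in all Ski-KO cells and above 0 in 2 Ski-WT cells, at most at 1.95 TPM. Srsf4 and Srsf10 lie on chromosome 4, as Ski does, at 368 and 278 protein-coding genes from it.

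Srsf5 was lower in both prefixes by a similar and uncalled amount, -0.65 and -0.58. Its lowest, median and highest cells were 0, 7.71 and 9.97 in prefix 051716, 0.60, 5.84 and 10.9 in prefix 051816, and 0, 7.60 and 11.1 in Ski-WT, which overlap widely. It reached 5 TPM in 77.8%, 89.5% and 87.5% of cells, and the mean TPM of 273 ± 286, 397 ± 586 and 345 ± 414 had the prefixes on opposite sides. Srsf6 had the largest gap between the Ski-KO prefixes of any member, 1.77. Its medians were 3.95, 0.57 and 3.93 with a lowest cell of 0 in each group and highest cells of 9.62, 10.1 and 9.51. The differences were 0.29 and -1.48, and 59.3%, 36.8% and 60.4% of cells reached 5 TPM. On mean TPM the pooled log2 ratio for Srsf6 was 0.74, against a pooled mean log2 difference of -0.44, so its direction depended on the scale.

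**Figure D3:**
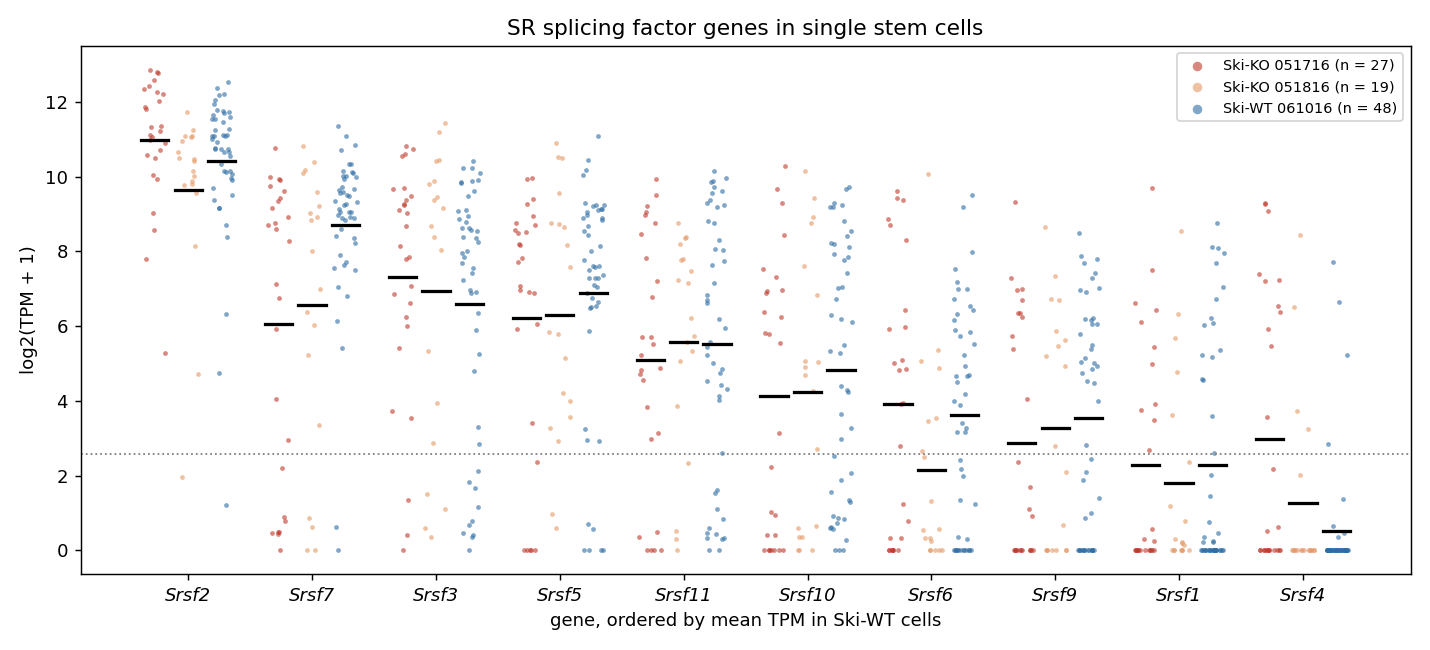
log2(TPM + 1) of each SR member in every cell, with 1 point per cell for prefix 051716 (27 cells), prefix 051816 (19) and Ski-WT (48), bars at the means and a dotted line at 5 TPM. Srsf2 lies high in almost all cells, the low end of Srsf7 is populated in the Ski-KO prefixes, and Srsf4 is at or near 0 in most cells.

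Srsf1 and Srsf9 are the other relatives with paired RNA recognition motifs, and Srsf1 is the founding member of the family. Srsf1 was rare here, with medians of 0.24, 0.21 and 0.23 in log2(TPM + 1), a lowest cell of 0 in each group and highest cells of 9.71, 8.55 and 8.76. It reached 5 TPM in 11 of 27, 5 of 19 and 17 of 48 cells, and its differences were 0.01 and -0.48. Where it was at 5 TPM or more, its median was 5.44, 5.68 and 6.09. Srsf9 had medians of 1.10, 2.78 and 4.51 and highest cells of 9.31, 8.65 and 8.48, and reached 5 TPM in 40.7%, 52.6% and 56.2% of cells. Its differences of -0.67 and -0.28 were uncalled, and its mean TPM hardly differed, at 55.5 ± 126, 52.4 ± 96.2 and 51.4 ± 77.9.

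Srsf10 is a relative that represses splicing when it is dephosphorylated, and Srsf11 is a divergent member of the family. Srsf10 had medians of 5.55, 4.70 and 5.31 and ranged from 0 to at most 10.3 in every group. Its differences were -0.71 and -0.60, it reached 5 TPM in 55.6%, 63.2% and 64.6% of cells, and mean TPM was 151 ± 296, 169 ± 310 and 162 ± 232. It was above 0 in 78.3% of Ski-KO and 93.8% of Ski-WT cells, so that part of its difference lay in values under 5 TPM. Srsf11 had medians of 5.23, 6.23 and 5.77 and ranged from 0 to at most 10.2. Its differences were -0.42 and 0.06, with 77.8%, 78.9% and 75% of cells at 5 TPM or more. Its mean TPM was 183 ± 271, 135 ± 136 and 249 ± 337.

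**Figure D4:**
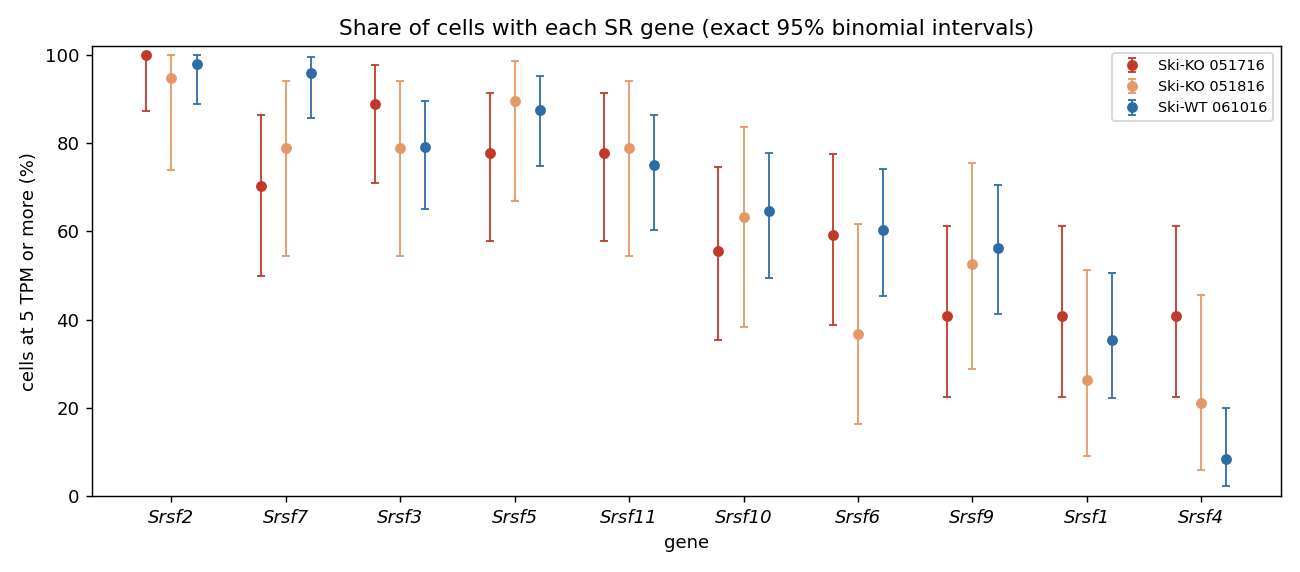
Percent of cells at 5 TPM or more for each SR member in prefix 051716, prefix 051816 and Ski-WT, with exact 95% Clopper-Pearson intervals over cells. The Ski-WT share is 95.8% for Srsf7 against 70.4% and 78.9%, and 8.33% for Srsf4 against 40.7% and 21.1%.

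Ordered by mean TPM in Ski-WT cells, the members ran Srsf2, Srsf7, Srsf3, Srsf5, Srsf11, Srsf10, Srsf6, Srsf9, Srsf1 and Srsf4, with ranks among the 6240 genes of 65, 197, 422, 442, 646, 1049, 2570, 3029, 3422 and 5609. Srsf2 exceeded Srsf7 in 39 of 48 Ski-WT and 45 of 46 Ski-KO cells. Over Ski-WT cells, no member differed from the next in the order by more than the SD of the within-cell difference, from Srsf2 with Srsf7 (1.71 ± 2.97 on the log2(TPM + 1) scale) to Srsf1 with Srsf4 (1.76 ± 3.08). Srsf3 exceeded Srsf5 in 24 of 48 Ski-WT cells, Srsf5 exceeded Srsf11 in 27, and Srsf1 exceeded Srsf4 in 22 with the reverse in 5. In the GENCODE vM21 annotation, 9 of the 10 members, all but Srsf10, had at least 1 transcript marked for nonsense-mediated decay, against 20.8% of 21951 protein-coding genes. The members had from 4 (Srsf4 and Srsf6) to 19 (Srsf11) annotated transcripts, and the shares were not adjusted for this number. The deposited table gives 1 value per gene, so whether a transcript was a coding or a decay form cannot be read from it.

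The members correlated only weakly from cell to cell. Across the 94 cells, with the mean of each prefix taken off, the median Spearman correlation over the 45 pairs was 0.07 (range -0.18 to 0.22), and over all pairs of measured genes it was 0.02. Pairs at 0.2 or more numbered 4 of 45, where 9.13% of all pairs reached that size: Srsf3 with Srsf11 (0.22), Srsf4 with Srsf9 (0.21), Srsf7 with Srsf10 (0.21) and Srsf9 with Srsf11 (0.20). Taking off prefix means orders cells at 0 by their prefix, and ranks taken within each prefix keep them tied. With such ranks 2 of 45 reached 0.2, beside 5.17% of all pairs, and the median was 0.06. These were Srsf4 with Srsf9 (0.25) and Srsf4 with Srsf11 (0.21), and the other 3 named pairs fell under 0.2. Of the 45 pairs, 14 had 1 sign in all 3 prefixes. This was not counted over all pairs of genes, so it cannot be called few or many. The lowest pairs were Srsf3 with Srsf5 (-0.18) and Srsf5 with Srsf9 (-0.15). Which cells shared a library preparation is not given in the sources used here. Cells differ in how many genes were detected, and the members' median correlation with that number was 0.28 against 0.14 over all genes. Srsf7, Srsf3, Srsf11 and Srsf10 followed it most (0.36, 0.34, 0.33 and 0.33), and Srsf2 and Srsf5 not at all (0.01 and 0.00). With it taken off, the median over pairs was 0.03. Correlations this weak in sparse values are no finding of shared control.

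**Figure D5:**
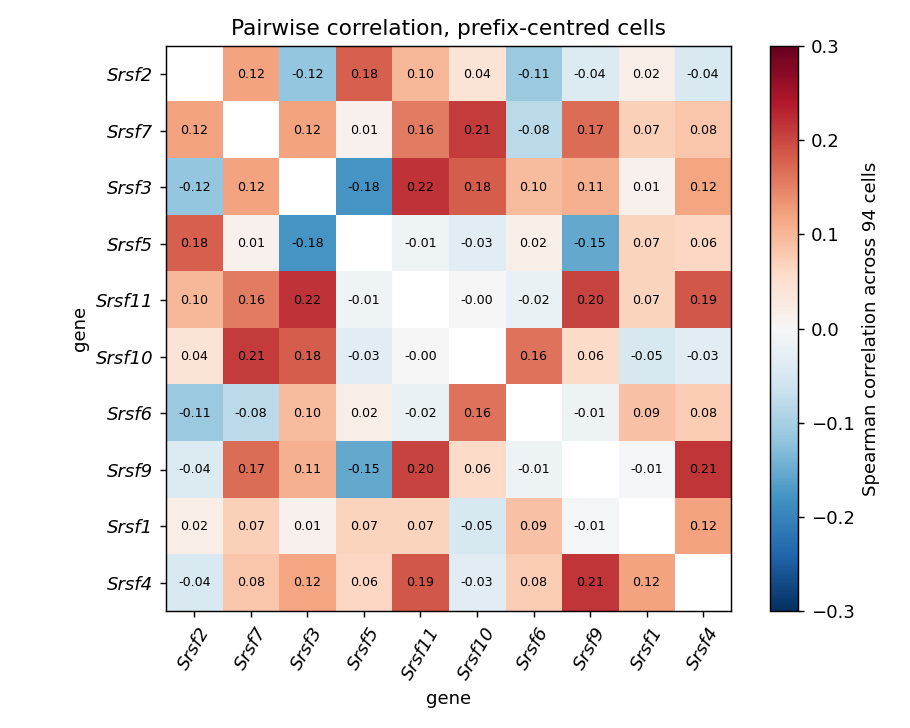
Spearman correlation of each pair of SR members across 94 cells after the mean of each label prefix was taken off. The 45 pairs run from -0.18 to 0.22, and 4 reach 0.2.

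By the naming rule, 1 measured gene outside the family was taken for each member as the one whose pattern across the 94 cells was most like it. Each correlation is the highest over all measured genes and says nothing of function. With prefix means taken off and with ranks within prefix they were 0.52 and 0.42 for Srsf7 with Syce2, 0.64 and 0.41 for Srsf4 with Sppl2a, 0.40 and 0.36 for Srsf3 with Gpbp1, and 0.40 and 0.41 for Srsf2 with Gpr56, an adhesion receptor also known as Adgrg1. Several were uneven between prefixes 051716, 051816 and Ski-WT. They were 0.76, 0.53 and 0.18 for Srsf7 with Syce2, 0.82, 0.37 and 0.10 for Srsf4 with Sppl2a, and 0.08, 0.32 and 0.52 for Srsf3 with Gpbp1. The rest were Srsf10 with Cdv3 (0.44 and 0.45), Srsf11 with Siva1 (0.44 and 0.42), Srsf5 with Ccdc6 (0.41 and 0.37), Srsf6 with Ube2e3 (0.41 and 0.38) and Srsf9 with Sf3b6, a subunit of the U2 particle (0.41 and 0.37). Srsf5 with Ccdc6 stood at -0.03 in prefix 051716 and Srsf6 with Ube2e3 at 0.06 in prefix 051816. Srsf1 with Tanc2 (0.43 and 0.27) rests on 5 cells with Tanc2 at 5 TPM or more. The summed SR level was closest to Malat1 (0.41 and 0.38), a nuclear noncoding RNA of splicing speckles.

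The machinery around the SR proteins was read from 6 lists by the same size rule, by which 11.5% of all measured genes were called lower and 2.0% higher. Of 25 measured SR-related proteins, Tra2b, which binds exonic enhancers beside SR proteins, was called higher (1.40; 40 Ski-KO and 32 Ski-WT cells at 5 TPM or more) and Srek1, an SR-related regulator, lower (-1.82; 26 and 38 cells). Of 14 genes for SR kinases, phosphatases and nuclear import, 3 were called lower and 1 higher. Srpk1, which phosphorylates SR proteins in the cytoplasm, was higher (1.11; 22 and 13 cells). Clk1, which does so in the nucleus, was lower (-1.43; 34 and 42 cells), as were Tnpo3, the SR import receptor (-1.10; 10 and 18 cells), and Ppp1ca, a catalytic subunit of protein phosphatase 1 (-1.57; 31 and 39 cells). Ppp1ca stood at -2.49 in prefix 051716 and -0.27 in prefix 051816, and Tnpo3 at -0.63 and -1.77, so each pooled call rested on 1 prefix. The log2 ratios of mean TPM were 0.97, -0.77, 0.35, -0.65, -0.35 and -0.72 for Tra2b, Srek1, Srpk1, Clk1, Tnpo3 and Ppp1ca, all under 1 in size.

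Among 14 measured genes of the U1 particle, the Sm ring and U2AF, the partners that SR proteins recruit, 5 were called lower and 0 higher, beside 11.5% and 2.0% of all measured genes, with a median of -0.49. These were Snrpa (-1.38), U2af1 (-1.16), U2af1l4 (-1.42), Snrpb (-1.18) and Snrpg (-1.05). In prefix 051816 alone U2af1 stood at -0.17, Snrpb at -0.10, Snrpg at -0.77 and Snrpa at -0.79, none of which meets the size rule, and U2af1l4 at -1.77. U2af1 and U2af1l4 were measured only through their Ski-WT cells, so that they had to differ. Their log2 ratios of mean TPM, -2.47 and -1.09, therefore give no support. For Snrpa, Snrpb and Snrpg the log2 ratio of mean TPM was only -0.25, -0.10 and -0.04. U2af2, the large U2AF subunit, was higher and uncalled at 0.79. Of 14 mRNA export genes only Ddx39, an export helicase, was called, and it was lower (-1.38, with -2.25 and -0.14 in the prefixes). Thoc7 (-0.97), Thoc5 (-0.90) and Sarnp (0.41) of the export complexes were uncalled. None of 13 nonsense-mediated decay genes was called, with Magoh at 0.90 and Rbm8a, its partner in the exon junction complex, at -0.95. None of 13 measured mitosis genes was called, and their median was -0.31. The lists' medians were -0.05 for SR-related proteins, -0.17 for kinases and phosphatases, -0.45 for export and -0.24 for decay, beside -0.22 over all genes. Among the markers of other blood cells reported here, Prtn3 (-1.72) was called lower and Hbb-b2 (1.02) higher. Prtn3 stood at -1.73 in prefix 051716 and -1.69 in prefix 051816. Hbb-b2 stood at 1.65 and 0.13, so its call rested on 1 prefix. The other measured erythroid marker, Car2, stood at -0.28, and the other measured myeloid markers, Lyz2 and Csf3r, at 0.22 and -0.30, all uncalled. The part of such cells in the SR differences was not tested.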

How the data were processed

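Cells were lysed on a Fluidigm C1 chip, cDNA was made with the SMARTer kit and libraries with Nextera XT, per the labels' protocols. The submitters' processing notes name Bowtie2, RSEM and mm9 and give neither version nor role. The range and sums of the deposited columns show them to be log2(TPM + 1), which was back-transformed for TPM means. TPM keeps no read depth, so no count test or read-based interval was made, and the number of cells limits precision. Cells took their genotype from their titles and their prefix from the descriptions. The meaning of the prefix is not given in the sources used here.

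For each gene the mean log2 difference, the share of cells at 5 TPM or more with 95% Clopper-Pearson intervals, and the median among those cells were computed over all 94 cells. A difference was called at 1 or more, or 20 points for a share, with both Ski-KO prefixes on the same side. Genes above 0 in under 25% of the cells of both genotypes were left out of counts over all genes, and no cell was left out. Correlations were Spearman's, after prefix means were taken off. No test or p-value was computed, because cells of an unnamed animal are not replicates. No doublet caller was run.

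The members and lists were chosen with earlier results of these data known. The naming rule took all members. In each pathway list it took up to 3 genes per direction with both prefixes on the same side and the largest smaller difference. For each member it took the closest gene by correlation. Other genes were named after their values were seen. Some members of the marker lists are not reported here. Copies were sought with blastn 2.17.0 among GENCODE vM21 transcripts, and promoters came from RefSeq for GRCm38.p6. All 10 members matched by symbol. The scripts were tested on simulated data. Alternatives covered pseudocounts, linear means, filters, scaling, a genes-detected covariate and single prefixes. Ranks within prefix and leaving out the cells with fewest genes were added after seeing the data. Values were computed with scipy 1.17.1, pandas 2.3.3 and numpy 2.4.6 in Python 3.11.15 and drawn with matplotlib 3.10.9.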

Additional observations from a re-analysis of the deposited data

How the results depend on the processing

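The median difference over the members was 0.026 as a log2 ratio of mean TPM, against -0.33. The number of members called lower was 2 with log2(TPM + 0.1), where Srsf10 joined Srsf7, and 2 in prefix 051816 alone, where Srsf6 joined it. It was 0 on mean TPM and 0 as a median over cells at 5 TPM or more. The number called higher was 2 with genes detected as a covariate, where Srsf3 joined Srsf4. It was 0 with log2(TPM + 10), 0 in prefix 051816 alone, 0 with a filter at 50% of cells, which Srsf4 did not pass, and 0 as a median over cells at 5 TPM or more. The median correlation was 0.19 in prefix 051816 alone. The cause of these moves was not tested. Over all genes, those called lower and higher numbered 718 and 125 in the reported values, 1332 and 313 with log2(TPM + 0.1), 171 and 17 with log2(TPM + 10), 1050 and 593 on mean TPM, 444 and 239 with the covariate, 1058 and 259 in prefix 051716 alone, 814 and 438 in prefix 051816 alone, 807 and 775 as a median over cells at 5 TPM or more, 481 and 75 with the filter at 50%, and 646 and 202 without the 9 cells with the fewest genes. The median over all genes ran from -0.35 with log2(TPM + 0.1) to 0.03 as a median over cells at 5 TPM or more. A member's difference counted as moved when it changed by more than its own gap between the Ski-KO prefixes. A Ski-KO share counted as moved when it left its exact Clopper-Pearson interval. Of the members' own differences, 109 stayed within these limits and 20 moved, and of the shares 22 and 8. Srsf6 (051716 minus 051816 of 1.77) stayed although it went from -0.44 to 0.74 on mean TPM. Srsf5 (-0.077) moved from -0.62 to -0.71 with log2(TPM + 0.1). Single-prefix values could not count as moved, because the pooled value lies between those of the prefixes. A changed filter leaves each difference as it was, so it could not count as moved either. The limit was widest where the prefixes disagreed most. For these reasons the counts do not measure stability. Srsf6 (0.74) and Srsf9 (0.08) changed sign on mean TPM, Srsf5 (0.28) and Srsf9 (0.29) as medians over cells at 5 TPM or more, Srsf11 (0.24) with the covariate, and Srsf2 (-0.14) with quantile normalization. No paired analysis was possible because shared cell numbers only name cells and the results come from no test.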
